A study of Homo sapiens with 12 samples.

Results

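The genes followed here were 10 human histone acetyltransferases, EP300, CREBBP, KAT2A, KAT2B, KAT5, KAT6A, KAT6B, KAT7, KAT8 and HAT1, taken by gene symbol from a count table of 62475 genes and described across all samples of the study. All 10 got past the low-count filter and belong to the 14435 genes tested. RNA was sequenced from HepG2, an established human liver cancer cell line, in 12 libraries that form 4 groups of 3 biological replicates. The groups were cells with the mutant HDAC1_S434A treated with H89 (S434A with H89), cells with wild-type HDAC1 treated with H89 (WT with H89), and the same cells left untreated (S434A without H89, WT without H89). HDAC1 is a histone deacetylase, S434A stands for alanine in place of a serine in it, and H89 inhibits protein kinase A (PKA), the kinase switched on by cyclic AMP. How the mutant cells were made, whether they derive from 1 clone, and the amount and duration of H89 are not stated in the sources used here.

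Histone acetyltransferases move an acetyl group from acetyl-CoA onto lysines of histones, the mark that deacetylases such as HDAC1 remove. p300 (EP300) and CBP (CREBBP) are broad coactivators, and CBP was named for its binding to the cyclic AMP responsive factor CREB once PKA has phosphorylated it. In liver cells, CREB and these coactivators are known for driving genes of fasting metabolism, while most other acetyltransferases work as the catalytic subunit of a stable complex, such as GCN5 (KAT2A) in SAGA, TIP60 (KAT5) in NuA4 and MOF (KAT8) in MSL and NSL.

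Promoter sequence was in hand for 8 of the 10 genes, from RefSeq on GRCh38.p14, a build other than the hg19 used for the counts. The 4 windows printed here are the 250 bases before the listed gene start of EP300 and CREBBP, the coactivators of CREB, and of KAT5 and HAT1, whose log2 fold changes were the lowest of the 10 both with H89 in WT cells and between genotypes without H89. They are chr22:41092342-41092591 on the plus strand for EP300, chr16:3880714-3880963 on the minus strand for CREBBP, chr11:65712002-65712251 on the plus strand for KAT5 and chr2:171922211-171922460 on the plus strand for HAT1. Sequences run 5′ to 3′, and capitals mark the short cyclic AMP response element TGACG, the CCAAT box and the ETS site CCGGAAG on either strand.
EP300: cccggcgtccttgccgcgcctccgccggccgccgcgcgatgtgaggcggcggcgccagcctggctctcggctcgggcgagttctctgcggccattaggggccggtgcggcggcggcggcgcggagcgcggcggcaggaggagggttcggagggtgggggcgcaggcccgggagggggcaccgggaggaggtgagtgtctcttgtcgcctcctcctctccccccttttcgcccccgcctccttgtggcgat
CREBBP: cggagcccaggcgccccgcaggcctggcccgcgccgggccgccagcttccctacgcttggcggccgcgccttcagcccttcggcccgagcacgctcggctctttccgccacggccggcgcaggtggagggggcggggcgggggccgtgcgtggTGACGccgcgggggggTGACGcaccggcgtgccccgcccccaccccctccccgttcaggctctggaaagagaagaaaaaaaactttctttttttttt
KAT5: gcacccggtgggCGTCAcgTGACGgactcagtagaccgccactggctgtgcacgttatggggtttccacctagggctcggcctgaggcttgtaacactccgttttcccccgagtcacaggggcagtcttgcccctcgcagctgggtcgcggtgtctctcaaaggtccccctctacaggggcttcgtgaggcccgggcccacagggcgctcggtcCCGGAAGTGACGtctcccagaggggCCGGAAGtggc
HAT1: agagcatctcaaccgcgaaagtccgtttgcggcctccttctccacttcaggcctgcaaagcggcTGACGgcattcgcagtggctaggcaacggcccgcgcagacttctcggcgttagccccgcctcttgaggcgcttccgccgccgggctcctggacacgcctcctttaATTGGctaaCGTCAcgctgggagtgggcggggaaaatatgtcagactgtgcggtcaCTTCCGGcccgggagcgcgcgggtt
The full cyclic AMP response element TGACGTCA, which reads the same on both strands and contains the short form, was in 0 of the 8 windows, against 1.77% of 27305 RefSeq promoters of that length. The short form was in 5 of 8, with 3 matches in KAT5, 2 each in CREBBP, KAT7 and HAT1 and 1 in KAT2A, against 21.7% of promoters. The GC box GGGCGG, not capitalised, was in 3 of 8 against 42.3%, the CCAAT box in 1 of 8 against 33%, and the ETS site in 3 of 8 against 8.82%. The EP300 window held none of these letters on either strand, and matches are given as letters in a window, not as sites of binding.

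Library depth ran from 27763604 to 37187794 counts in WT without H89 and from 17562754 to 22648485 in the other 9 libraries. HDAC1, whose mRNA level does not show the mutation, averaged 618 ± 64.0 CPM in treated S434A cells, 697 ± 33.8 CPM in treated WT cells, 708 ± 46.8 CPM in untreated S434A cells and 688 ± 13.6 CPM in untreated WT cells (CPM, read counts scaled to library size with TMM factors, SD, n = 3 each). All 10 hepatocyte markers were detected, with summed levels of 44403 to 45437 CPM, 43966 to 48704 CPM, 33562 to 54564 CPM and 72997 to 73539 CPM in the same order of groups. The 7 fibroblast markers summed to at most 0.189 CPM in any library, and of 7 blood and endothelial markers in the table PTPRC, HBB and KDR were at 0 in every library while the list summed to 16.3 to 44.0 CPM. The libraries also differed in make-up. Mitochondrially encoded mRNAs held 1.48% to 1.51% of the counts in WT without H89 and 3.16% to 7.02% in the other 9 libraries. The level of each gene, relative to the mean of all libraries, was rank-correlated with its exon length. The correlation lay between 0.424 and 0.458 in the 6 libraries with H89. It lay between -0.192 and -0.0789 in S434A without H89 and between -0.427 and -0.415 in WT without H89. The same correlation with GC content was 0.824, 0.716 and 0.128 in replicates 1, 2 and 3 of S434A without H89, and between -0.448 and -0.0649 in the other 9 libraries. That group also had the widest spread between replicates, a coefficient of variation of 0.35 against 0.019 to 0.0732 in the other 3 groups. The main fit shares its estimate of spread over all groups, so an SE or p does not follow the spread of the groups compared. The part of depth, of the mitochondrial share or of the summed hepatocyte markers in any result was not tested. Log2 fold changes are given also from a fit in which the smooth dependence of every library on GC content and exon length was removed, called trend-corrected below.

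H89 in WT cells was the comparison in which the largest number of acetyltransferase genes changed. A total of 7 of the 10 rose, EP300, CREBBP, KAT2A, KAT2B, KAT6A, KAT6B and KAT7, and 2 fell, KAT5 and KAT8 (edgeR's quasi-likelihood test, Benjamini-Hochberg adjusted p under 0.05), where 38.8% of all genes tested rose and 30.9% fell. The median log2 value was 1.30 for the 10 genes and 0.20 for all genes. In S434A cells, 5 rose with H89 and 2 fell, where 29.3% and 22.7% of all genes did, and the medians were 0.58 and 0.01. Of these 7 calls, 4 did not pass with only the groups compared in the fit, CREBBP (edgeR adjusted p = 0.0575), KAT2B (0.0718), KAT5 (0.094) and KAT6A (0.0582). Between genotypes without H89, 5 were higher in S434A cells and 2 lower, where 29% and 29.3% of all genes were, and the medians were 0.62 and -0.04. With H89 present, none of the 10 differed between genotypes by edgeR's quasi-likelihood test, and 0% of all genes did. In that comparison, 589 of 14435 genes had an unadjusted p under 0.05, and DESeq2 called 2 and limma-voom 0. Calls over 2-fold were 5 higher and 0 lower with H89 in WT cells (22.2% and 15.8% of all genes), 3 higher and 0 lower with H89 in S434A cells (15.2% and 2.35%), and 3 higher and 1 lower between genotypes without H89 (11.6% and 11.3%). In the trend-corrected fit, the calls were 6 higher and 3 lower with H89 in WT cells (42.6% and 29.6% of all genes), 6 higher and 1 lower with H89 in S434A cells (36.9% and 9.71%), 4 higher and 3 lower between genotypes without H89 (23.9% and 31.4%) and 0 between genotypes with H89. The median of all genes for H89 in WT cells was 0.05 under RLE scaling, and that of the 10 genes 1.15. For H89 in S434A cells, upper-quartile scaling gave a median of -0.11 for all genes and 0.45 for the 10 genes. The WT libraries without H89 are the baseline of 2 of these comparisons and the S434A libraries without H89 enter 2 as well, so the comparisons are not independent of each other.

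With H89 in WT cells, the 3 libraries of each group did not overlap for any of the 10 genes, as for 83.1% of all genes. The groups stood apart for 7 of 10 genes in the H89 comparison of S434A cells (56.4% of all genes), for 6 of 10 between genotypes without H89 (62.7%) and for 3 of 10 between genotypes with H89 (17.3%). In bulk RNA, fewer cells with a transcript and less of it per cell cannot be told apart.

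**Figure D1:**
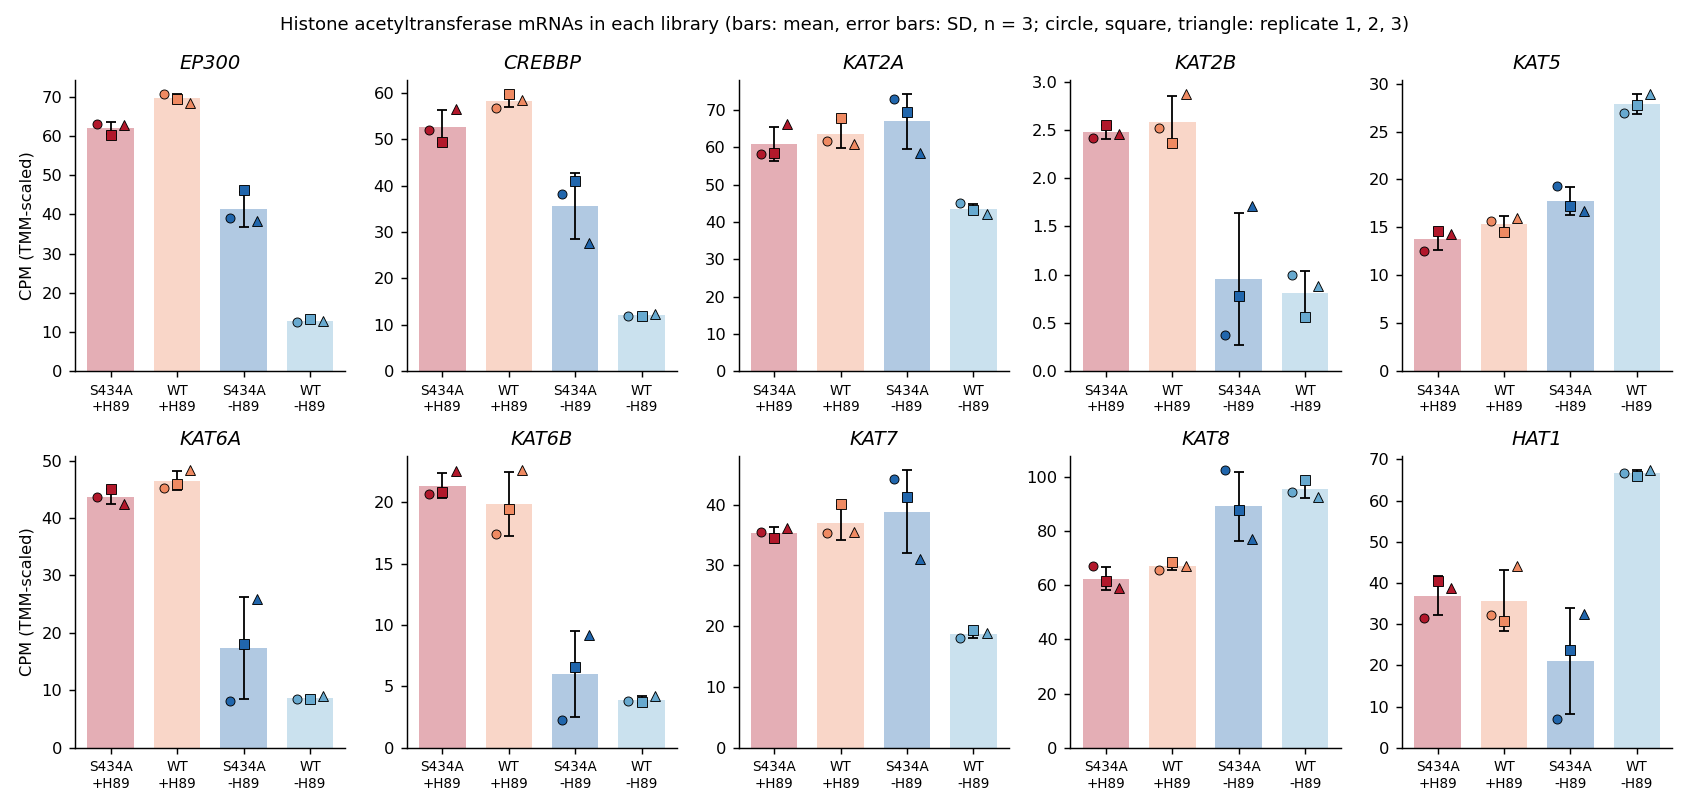
Level of each acetyltransferase mRNA in CPM (TMM-scaled, linear axes from 0), one panel per gene, with bars for the mean, error bars for the SD (n = 3) and a mark for each library. EP300 and CREBBP are lowest in WT without H89, at 12.9 and 12.03 CPM on average, HAT1 is highest there at 66.7 CPM, and the 3 libraries of S434A without H89 are spread widely for KAT6A, KAT6B and HAT1.

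**Figure D2:**
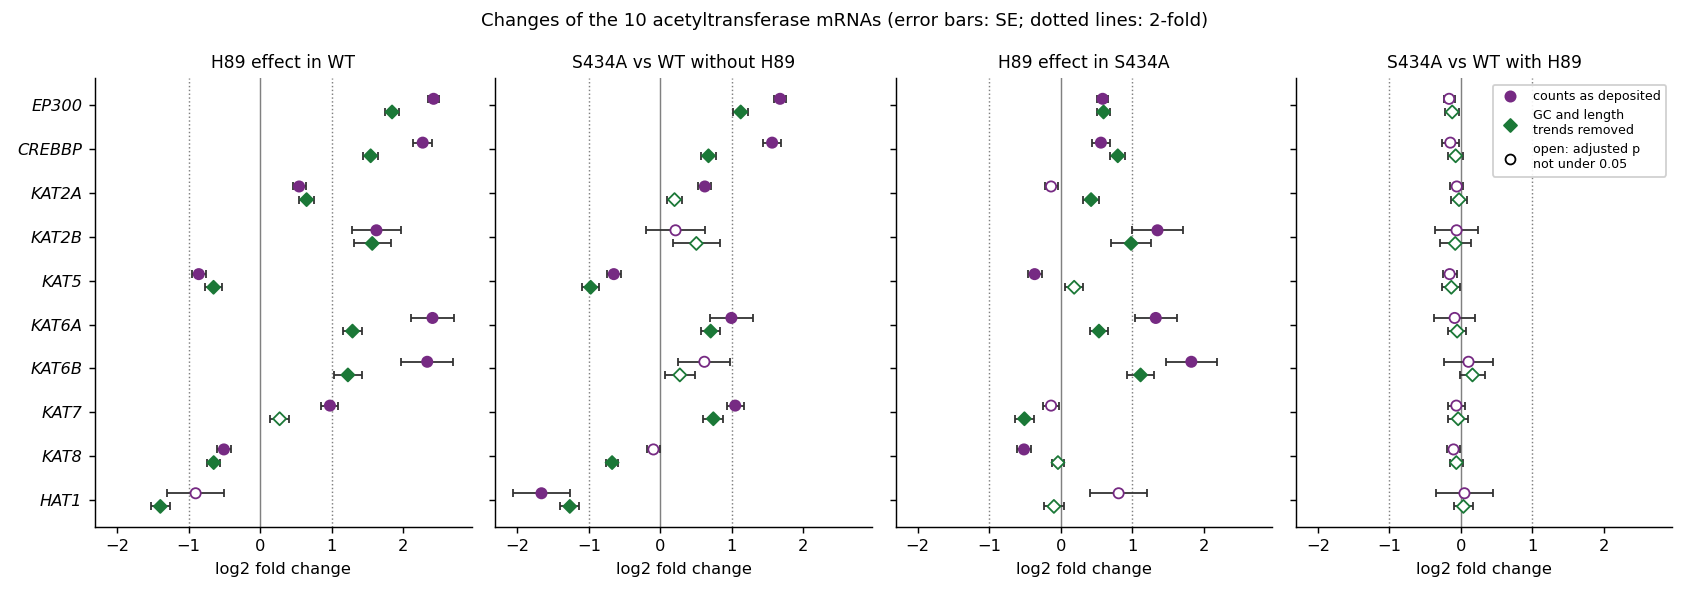
Log2 fold change of each gene in the 4 comparisons (x axis, with SE bars), from the counts as deposited (circles) and with GC and length trends removed (diamonds), filled where the adjusted p is under 0.05. In the comparison of genotypes with H89 all 10 genes lie between -0.17 and 0.11, whereas H89 in WT cells spans -0.90 to 2.43.

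EP300 and CREBBP encode p300 and CBP, large paralogous enzymes that acetylate histone H3 at enhancers as well as many transcription factors. EP300 (ENSG00000100393.14_7, hg19 chr22:41488596-41576081, plus strand, 11692 exonic bases) was at 62.9, 60.3 and 62.8 CPM in treated S434A cells and at 70.8, 69.4 and 68.4 CPM in treated WT cells. Untreated, it was at 39.1, 46.3 and 38.4 CPM in S434A cells and at 12.6, 13.3 and 12.8 CPM in WT cells. The 4 groups did not overlap in any pair, with WT without H89 lowest and WT with H89 highest. EP300 rose 5.38-fold with H89 in WT cells (log2 2.43 ± 0.082 SE, edgeR adjusted p = 4.41e-09), at percentile 98.6 of the changes of all genes. In S434A cells, it rose 1.503-fold with H89 (log2 0.59 ± 0.077 SE, edgeR adjusted p = 0.000268). It was 3.19-fold higher in S434A than in WT cells without H89 (log2 1.68 ± 0.080 SE, edgeR adjusted p = 3.99e-07, and 0.00104 with only these 2 groups in the fit). The untreated mutant cells thus lay between the untreated and the treated WT cells. With H89, the difference between genotypes was -0.17 ± 0.077 SE on the log2 scale (edgeR adjusted p = 0.9998). The trend-corrected log2 values were 1.85 for H89 in WT cells, 0.60 for H89 in S434A cells and 1.12 between genotypes without H89.

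CREBBP (ENSG00000005339.15_10, hg19 chr16:3775055-3930714, minus strand, 15479 exonic bases) followed the same order of groups. It was at 51.9, 49.4 and 56.6 CPM in treated S434A cells and 56.8, 59.8 and 58.4 CPM in treated WT cells. Untreated, it was at 38.2, 40.9 and 27.7 CPM in S434A cells and 11.98, 11.8 and 12.3 CPM in WT cells. Every library of S434A without H89 lay above those of WT without H89 and below those with H89. CREBBP rose 4.84-fold with H89 in WT cells (log2 2.28 ± 0.13 SE, edgeR adjusted p = 6.23e-08) and 1.48-fold in S434A cells (log2 0.56 ± 0.12 SE, edgeR adjusted p = 0.00428). Without H89 it was 2.96-fold higher in S434A than in WT cells (log2 1.56 ± 0.13 SE, edgeR adjusted p = 2.68e-06, and 0.00112 with only these 2 groups in the fit). With H89 the log2 difference between genotypes was -0.15 ± 0.12 SE. The trend-corrected difference between genotypes without H89 was smaller, 0.67 on the log2 scale (edgeR adjusted p = 8.8e-05), while H89 in WT cells gave 1.55. The rise in S434A cells did not pass when replicate 3 of S434A with H89 was left out (log2 0.38, edgeR adjusted p = 0.0515).

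KAT2A and KAT2B encode GCN5 and PCAF, the interchangeable acetyltransferases of the SAGA and ATAC coactivator complexes. KAT2A (ENSG00000108773.11_7, hg19 chr17:40265129-40273385, minus strand, 3775 exonic bases) was at 58.3, 58.4 and 66.2 CPM in S434A with H89 and 61.7, 67.8 and 60.9 CPM in WT with H89. It was at 72.9, 69.3 and 58.5 CPM in S434A without H89 and 45.0, 43.1 and 42.2 CPM in WT without H89. The WT libraries without H89 were lower than all 9 others, which overlapped among themselves. In the counts as deposited, GCN5 mRNA was thus lowest in WT cells that had no H89. With the trends removed, replicate 1 of S434A without H89 was lowest, at a log2 level of 5.39, against 5.46 to 5.55 in WT without H89. KAT2A rose 1.46-fold with H89 in WT cells (log2 0.55 ± 0.092 SE, edgeR adjusted p = 0.000293), and the log2 value was 0.34 without replicate 2 of WT with H89. Without H89 it was 1.54-fold higher in S434A than in WT cells (log2 0.62 ± 0.092 SE, edgeR adjusted p = 0.000154). The genotype difference did not pass once the trends were removed (log2 0.20, edgeR adjusted p = 0.132). For H89 in S434A cells the log2 fold change was -0.13 ± 0.091 SE (edgeR adjusted p = 0.238), and the sign turned with the trends removed (log2 0.43, edgeR adjusted p = 0.00529). Without replicate 3 of S434A without H89 it was -0.22 (edgeR adjusted p = 0.0199), and without replicate 3 of S434A with H89 it was -0.32 (edgeR adjusted p = 0.0289).

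KAT2B (ENSG00000114166.8_5, hg19 chr3:20081938-20195896, plus strand, 5211 exonic bases) was the least abundant of the 10 in CPM, though not per exon length in every group, with 7 to 61 counts per library. It was at 2.41, 2.55 and 2.46 CPM in S434A with H89 and 2.51, 2.36 and 2.87 CPM in WT with H89. Without H89 it was at 0.377, 0.776 and 1.71 CPM in S434A cells and 0.996, 0.563 and 0.889 CPM in WT cells. All 6 libraries with H89 were higher than all 6 without, and the genotypes overlapped in both conditions. KAT2B rose 3.09-fold with H89 in WT cells (log2 1.63 ± 0.34 SE, edgeR adjusted p = 0.00135) and 2.56-fold in S434A cells (log2 1.36 ± 0.36 SE, edgeR adjusted p = 0.01). The rise in S434A cells had a log2 value of 1.10 without replicate 2 of S434A without H89 (edgeR adjusted p = 0.0553) and of 2.10 without replicate 3. Between genotypes without H89, its log2 fold change was 0.21 ± 0.41 SE (edgeR adjusted p = 0.681), and -0.54 without replicate 3 of S434A without H89.

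KAT5, KAT6A, KAT6B, KAT7 and KAT8 make up the MYST family. KAT5 encodes TIP60, the acetyltransferase of NuA4, which acts on histones H4 and H2A and on the kinase ATM in DNA repair. KAT5 (ENSG00000172977.13_7, hg19 chr11:65479467-65487075, plus strand, 3732 exonic bases) was at 12.5, 14.6 and 14.3 CPM in S434A with H89 and 15.6, 14.5 and 16.02 CPM in WT with H89. It was at 19.4, 17.2 and 16.7 CPM in S434A without H89 and 26.9, 27.8 and 28.95 CPM in WT without H89. WT without H89 was highest and clear of all other libraries, followed by S434A without H89 and then the treated groups. KAT5 fell to 0.552 times its untreated level with H89 in WT cells (log2 -0.86 ± 0.097 SE, edgeR adjusted p = 1.43e-05) and was at 0.637 times the WT level in S434A cells without H89 (log2 -0.65 ± 0.096 SE, edgeR adjusted p = 0.000157). In S434A cells it fell with H89 by 0.36 on the log2 scale (edgeR adjusted p = 0.0108), and the sign turned with the trends removed (log2 0.19, edgeR adjusted p = 0.229). In the counts as deposited, TIP60 mRNA was lowest in the treated cells of both genotypes. With the trends removed, its mean was lowest in untreated S434A cells, but those libraries overlapped both treated groups. Their log2 levels were 3.53 to 4.03, against 3.82 to 4.12 in S434A with H89 and 4.02 to 4.25 in WT with H89. In the hg19 gene models, 38.6% of its exonic bases are shared with RNASEH2C on the opposite strand, and counting set no strand option, so reads there cannot be assigned and the KAT5 level is uncertain.

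KAT6A and KAT6B encode MOZ and MORF, paralogs that acetylate histone H3 with a BRPF scaffold. KAT6A (ENSG00000083168.11_9, hg19 chr8:41786997-41909512, minus strand) was at 43.6, 45.1 and 42.5 CPM in S434A with H89 and 45.2, 45.9 and 48.4 CPM in WT with H89. In untreated cells it was at 8.13, 18.1 and 25.9 CPM for S434A and 8.54, 8.53 and 9.07 CPM for WT. All KAT6A libraries with H89 were above all those without. Replicate 1 of S434A without H89 lay below the untreated WT libraries, while replicates 2 and 3 lay above them. KAT6B (ENSG00000156650.14_9, hg19 chr10:76584685-76792382, plus strand) was at 20.7, 20.8 and 22.5 CPM in S434A with H89 and 17.4, 19.5 and 22.6 CPM in WT with H89. Untreated cells had it at 2.26, 6.54 and 9.19 CPM for S434A and 3.79, 3.73 and 4.22 CPM for WT. Its libraries with H89 were again above all those without, and the genotypes overlapped.

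With H89 in WT cells, KAT6A rose 5.33-fold (log2 2.41 ± 0.31 SE, edgeR adjusted p = 4.41e-05) and KAT6B 5.06-fold (log2 2.34 ± 0.36 SE, edgeR adjusted p = 0.000187). In S434A cells, KAT6A rose 2.52-fold (log2 1.33 ± 0.30 SE, edgeR adjusted p = 0.00499) and KAT6B 3.55-fold (log2 1.83 ± 0.36 SE, edgeR adjusted p = 0.00256). Both genes are among the longest measured. They have 24143 and 32495 exonic bases, at length percentiles 99.5 and 99.8 of the genes tested, and levels shifted with length between these groups. With the trends removed, H89 in WT cells gave a log2 value of 1.29 for KAT6A and 1.23 for KAT6B, and H89 in S434A cells gave 0.54 and 1.12, each past the test. Without H89, KAT6A was higher in S434A than in WT cells (log2 0.99 ± 0.30 SE, edgeR adjusted p = 0.0155), but not without replicate 3 of that group (log2 0.58, edgeR adjusted p = 0.0659). For KAT6B the same difference was 0.62 ± 0.36 SE (edgeR adjusted p = 0.171), and 1.009 without replicate 1 of S434A without H89 (edgeR adjusted p = 8.66e-05).

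KAT7 encodes HBO1, known for acetylating histone H3 and for its part in licensing replication origins. KAT7 (ENSG00000136504.13_7, hg19 chr17:47866010-47912388, plus strand, 11689 exonic bases) was at 35.6, 34.4 and 36.2 CPM in S434A with H89 and 35.3, 40.2 and 35.5 CPM in WT with H89. Without H89 it was at 44.2, 41.3 and 31.1 CPM in S434A cells and 18.1, 19.4 and 18.9 CPM in WT cells. WT without H89 was low and the other 3 groups overlapped, as for KAT2A. KAT7 was 2.07-fold higher in S434A than in WT cells without H89 (log2 1.05 ± 0.12 SE, edgeR adjusted p = 2.57e-05; trend-corrected log2 0.74). It rose 1.97-fold with H89 in WT cells (log2 0.98 ± 0.12 SE, edgeR adjusted p = 2.53e-05), and this did not pass with the trends removed (log2 0.27, edgeR adjusted p = 0.0869). The genotype difference without H89 thus passed in both fits. In S434A cells, the log2 fold change with H89 was -0.13 ± 0.12 SE (edgeR adjusted p = 0.358), and it passed without replicate 3 of S434A without H89 (log2 -0.27, edgeR adjusted p = 0.00748) and with the trends removed (log2 -0.51, edgeR adjusted p = 0.00784).

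KAT8 encodes MOF, which acetylates histone H4 at lysines set by its MSL and NSL partners. KAT8 (ENSG00000103510.20_8, hg19 chr16:31125810-31142714, plus strand, 5726 exonic bases) was at 66.96, 61.6 and 58.8 CPM in S434A with H89 and 65.7, 68.5 and 67.02 CPM in WT with H89. In the untreated groups it was at 103, 87.9 and 77.0 CPM in S434A cells and 94.3, 98.9 and 92.7 CPM in WT cells. All libraries with H89 were below all those without, and the genotypes overlapped in both conditions. KAT8 fell to 0.704 times its untreated level with H89 in WT cells (log2 -0.51 ± 0.095 SE, edgeR adjusted p = 0.000664) and to 0.701 times in S434A cells (log2 -0.51 ± 0.095 SE, edgeR adjusted p = 0.00188). The fall in S434A cells was -0.04 on the log2 scale with the trends removed (edgeR adjusted p = 0.749). Between genotypes without H89, the log2 fold change was -0.10 ± 0.095 SE (edgeR adjusted p = 0.407), -0.21 without replicate 1 of S434A without H89 (edgeR adjusted p = 0.0303), and -0.68 with the trends removed (edgeR adjusted p = 1.27e-05).

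HAT1 differs from the rest in acting mainly on newly made histone H4 before it is placed on DNA, together with the chaperone RBBP7. HAT1 (ENSG00000128708.13_6, hg19 chr2:172778958-172848600, plus strand, 6793 exonic bases) was at 31.4, 40.5 and 38.9 CPM in S434A with H89 and 32.1, 30.8 and 44.2 CPM in WT with H89. It was at 6.995, 23.6 and 32.5 CPM in S434A without H89 and 66.7, 66.0 and 67.4 CPM in WT without H89. WT without H89 was higher than all 9 other libraries, and replicate 1 of S434A without H89 was the lowest of all 12. HAT1 was at 0.316 times the WT level in S434A cells without H89 (log2 -1.66 ± 0.40 SE, edgeR adjusted p = 0.00462; trend-corrected log2 -1.27, edgeR adjusted p = 2.03e-06). HAT1 mRNA was thus lower in the mutant where EP300 and CREBBP mRNA was higher. With only these 2 groups in the fit, the log2 value was -1.45 (edgeR adjusted p = 0.0537). With H89 in WT cells, its log2 fold change was -0.90 ± 0.39 SE and did not pass (edgeR adjusted p = 0.0618), although the groups did not overlap. That value passed in 9 of 11 settings other than the omission of a single library, such as only the groups compared in the fit (log2 -1.05, edgeR adjusted p = 4.86e-06) and the trends removed (log2 -1.40, edgeR adjusted p = 1.96e-07). It also passed without replicate 3 of WT with H89 (log2 -1.23, edgeR adjusted p = 0.0422). In S434A cells, the value with H89 was 0.81 ± 0.40 SE (edgeR adjusted p = 0.111), 1.27 without replicate 3 of S434A without H89 (edgeR adjusted p = 0.0205) and -0.09 with the trends removed (edgeR adjusted p = 0.588).

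HAT1 has the lowest GC content of the 10 genes, 39.9%, followed by KAT2B at 43.9%, KAT6A at 44.1% and KAT6B at 44.9%. For each of these 4, replicate 1 was the lowest of the 3 libraries of S434A without H89, and that library had the correlation of 0.824 between level and GC content. KAT2A, KAT5 and KAT8, with GC contents of 59.0%, 57.4% and 56.3%, were highest in replicate 1 of that group, and so was KAT7, whose GC content is 46.2%. On the trend-corrected scale, HAT1 in S434A without H89 was at log2 values of 4.41, 5.02 and 5.08, against 6.15, 6.17 and 6.15 in WT without H89, and the groups did not overlap.

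**Figure D3:**
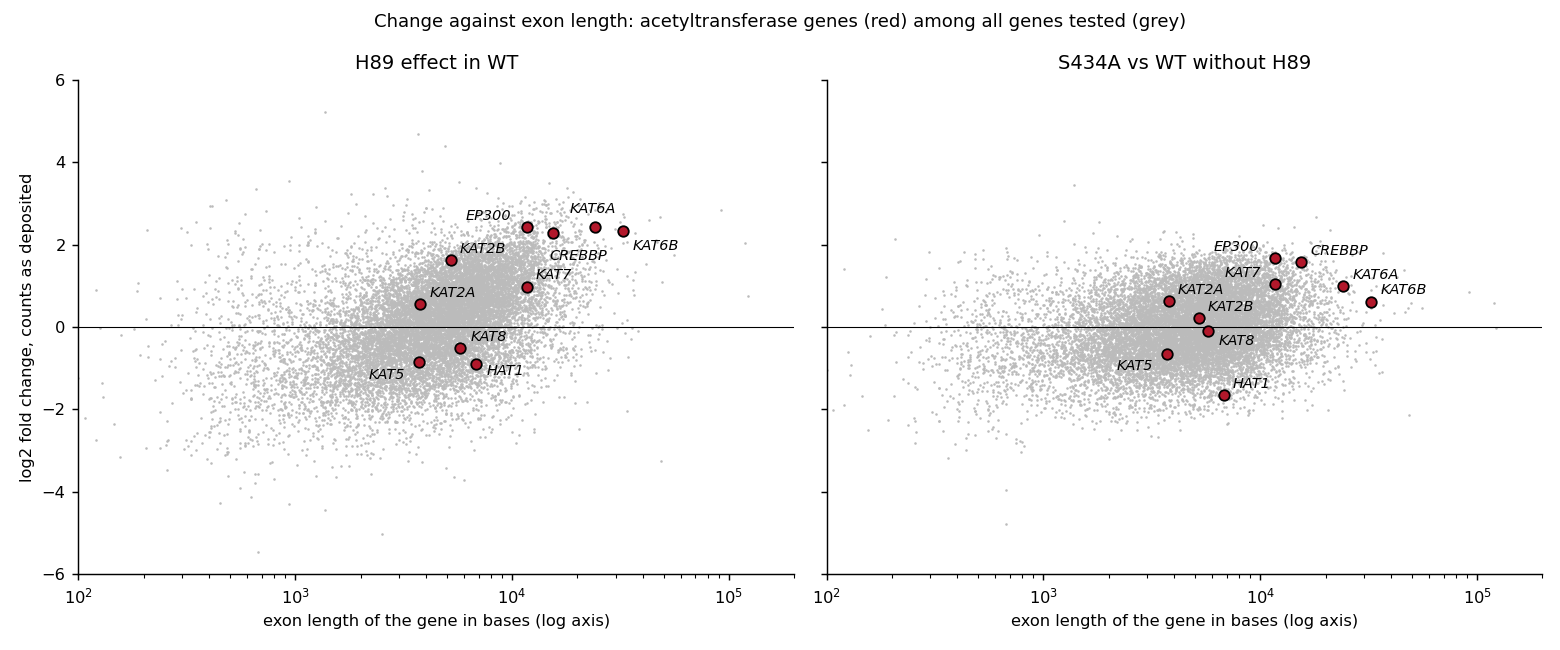
Log2 fold change from the counts as deposited (y axis) against exon length in bases (x axis, log scale) for all 14435 genes tested (grey) and the 10 acetyltransferases (red), for H89 in WT cells and for S434A against WT without H89. In WT cells EP300, CREBBP, KAT6A and KAT6B lie at the upper right, at length percentiles 92.6, 97.0, 99.5 and 99.8, and HAT1 is the lowest of the 10 in both panels.

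The difference between the H89 effects of the genotypes was tested as the effect in S434A cells minus that in WT cells. The same quantity is the genotype difference with H89 minus that without H89. With H89 the genotype differences of the 10 genes lay between -0.17 and 0.11. The values below therefore mostly carry the untreated genotype difference with its sign turned, and are no independent result. Of the 10 genes, 2 had a higher value in S434A cells, KAT5 and HAT1, and 4 a lower one, EP300, CREBBP, KAT2A and KAT7, where 24% of all genes were called in each direction. Over 2-fold, 1 was higher and 3 lower (11.7% and 12.4% of all genes), and in the trend-corrected fit 3 were higher and 4 lower (25.8% and 18.3%). In the counts as deposited EP300 differed most, by -1.84 ± 0.11 SE on the log2 scale (edgeR adjusted p = 7.46e-06), and CREBBP by -1.71 ± 0.18 SE (edgeR adjusted p = 3.04e-05). KAT7 differed by -1.11 ± 0.17 SE (edgeR adjusted p = 0.000311), KAT2A by -0.68 ± 0.13 SE (edgeR adjusted p = 0.00134) and KAT5 by 0.49 ± 0.14 SE (edgeR adjusted p = 0.0117). KAT2A did not pass with the trends removed (log2 -0.22, edgeR adjusted p = 0.25), whereas EP300 was at -1.25 and CREBBP at -0.75 on that scale and passed, and HAT1 differed most there, at 1.30. HAT1 differed by 1.71 ± 0.56 SE (edgeR adjusted p = 0.0272), a call lost when any of 6 single libraries was left out, namely replicates 2 and 3 of S434A with H89, 1 and 2 of WT with H89, or 1 and 3 of WT without H89, with an adjusted p between 0.0505 and 0.0606. KAT6A was at -1.08 ± 0.42 SE (edgeR adjusted p = 0.0532), and at -1.42 without replicate 1 of S434A without H89 (edgeR adjusted p = 4.84e-06). It passed in 7 of 11 settings other than the omission of a single library alone, among them the trend-corrected fit (log2 -0.76, edgeR adjusted p = 0.00344). KAT8 was at -0.01 and passed with the trends removed (log2 0.61, edgeR adjusted p = 0.00105). KAT6B was at -0.51 ± 0.49 SE (edgeR adjusted p = 0.429), and at -0.90 without that library (edgeR adjusted p = 0.00154).

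To set the genes beside one another, levels were divided by exon length (CPM per kb of exon) and expressed as a share of the summed level of all 10. The summed level was 50.9 ± 1.36 CPM per kb in treated S434A cells, 53.8 ± 1.25 in treated WT cells, 51.4 ± 3.27 in untreated S434A cells and 49.6 ± 0.397 in untreated WT cells (SD, n = 3 each), a sum that depends on the division by exon length. The make-up of that sum differed between groups. KAT8 and KAT2A, the most abundant per length, held 21.5% and 31.7% in treated S434A cells, 21.8% and 31.2% in treated WT cells, 30.2% and 34.4% in untreated S434A cells, and 33.6% and 23.2% in untreated WT cells. HAT1 held 10.7 ± 1.29%, 9.76 ± 1.92%, 6.18 ± 4.08% and 19.8 ± 0.363% in the same order of groups, and KAT5 held 7.27%, 7.67%, 9.26% and 15.1%. EP300 held 10.4 ± 0.327%, 11.1 ± 0.440%, 6.87 ± 0.612% and 2.23 ± 0.0529%, and CREBBP 6.68%, 7.0%, 4.45% and 1.57%. In WT without H89, HAT1 and KAT5 thus stood above EP300 and CREBBP per length, while in WT with H89 EP300 overlapped HAT1. EP300 also stood above KAT5 there when the full exon length of KAT5 was used. Because 38.6% of the KAT5 exonic bases are shared with RNASEH2C and reads there cannot be assigned, the shares of KAT5 and its order beside EP300 with H89 are uncertain. These shares depend on the division by exon length and carry the length trend between libraries.

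**Figure D4:**
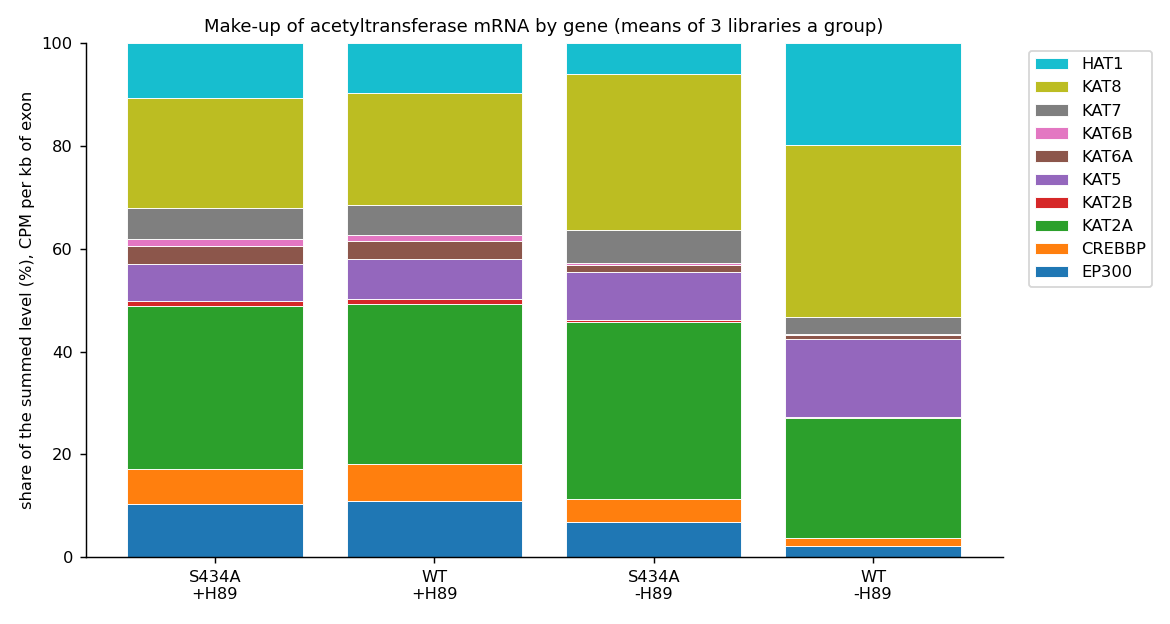
Share of each gene in the summed acetyltransferase level (CPM per kb of exon, y axis in percent, means of 3 libraries per group). HAT1 takes 19.8% of the bar of WT without H89 and 6.18% to 10.7% of the other bars, and EP300 takes 2.23% there and 6.87% to 11.1% elsewhere.

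Ratios between paralogs within a library do not depend on how libraries are scaled, though a difference in GC content or length between the paralogs still acts on them. The log2 ratio of EP300 to CREBBP was 0.64 ± 0.076 in treated S434A cells, 0.66 ± 0.056 in treated WT cells, 0.63 ± 0.22 in untreated S434A cells and 0.51 ± 0.063 in untreated WT cells (SD, n = 3 each). EP300 was thus above CREBBP per length in each group mean. With the trends removed the ratio was 0.61 ± 0.066, 0.66 ± 0.064, 0.81 ± 0.032 and 0.36 ± 0.074 in the same order of groups, so that the untreated genotypes stood further apart than in the counts as deposited. The log2 ratio of KAT2A to KAT2B was 5.09 ± 0.12 in treated S434A cells and 5.09 ± 0.22 in treated WT cells, and it was 6.86 ± 1.25 in untreated S434A cells and 6.24 ± 0.42 in untreated WT cells. GCN5 mRNA exceeded PCAF mRNA in every library, and by less with H89. The log2 ratio of KAT6A to KAT6B was 1.46 ± 0.11, 1.66 ± 0.14, 2.03 ± 0.21 and 1.59 ± 0.048 in the same order of groups. In 12 comparisons of these ratios, the exact two-sided permutation test gave its smallest possible p of 0.1 in 5, so 3 against 3 libraries cannot pass 0.05. Those 5 were EP300 to CREBBP with H89 in WT cells, KAT2A to KAT2B with H89 in either genotype, and KAT6A to KAT6B for S434A against WT without H89 and for H89 in S434A cells.

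**Figure D5:**
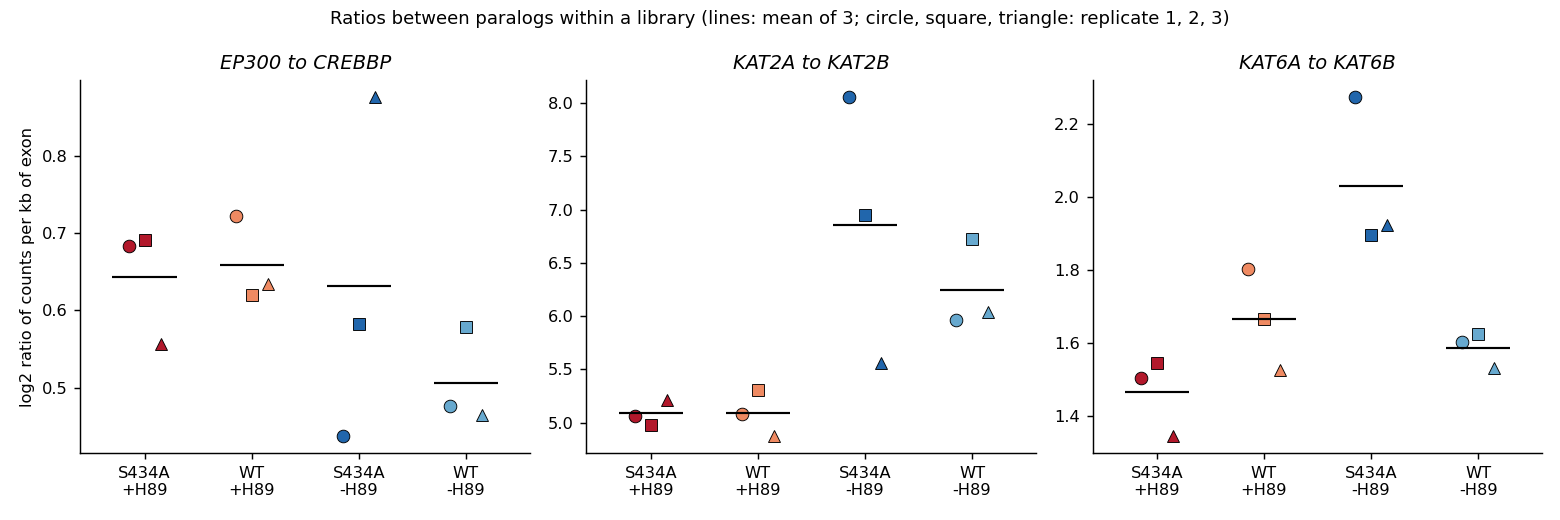
Log2 ratio of counts per kb of exon for the 3 paralog pairs (y axes, each with its own range), with a mark for each library and a line at the group mean. The ratio of EP300 to CREBBP has group means between 0.51 and 0.66, while that of KAT2A to KAT2B is near 5.09 in both groups with H89 and higher in both without.

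Genes that work with the acetyltransferases were described by role. The counts of each list stand beside 38.8% of all genes that rose and 30.9% that fell with H89 in WT cells, and 29% higher and 29.3% lower in S434A cells without H89. Among 14 measured partners of p300 and CBP (CREB family factors and their CRTC, CITED, NCOA and MAML coactivators), 13 rose and 1 fell with H89 in WT cells, and the median log2 value was 1.37, beside 0.20 for all genes. NCOA1, a steroid receptor coactivator, averaged 20.1 ± 0.565 CPM in WT with H89 and 4.47 ± 0.839 CPM in WT without H89 (log2 2.16, edgeR adjusted p = 9.56e-06). MAML1, the Notch coactivator, averaged 64.4 ± 1.79 CPM with H89 and 20.9 ± 0.977 CPM without (log2 1.62, edgeR adjusted p = 1.28e-07). CRTC2, the CREB coactivator that enters the nucleus on cyclic AMP signals, was at log2 1.23 (edgeR adjusted p = 7.22e-06). Without H89, 8 of the 14 were higher in S434A than in WT cells and 2 lower, with a median of 0.97 against -0.04, and CREM, which makes cyclic AMP inducible repressors among other forms, was lower (log2 -1.19, edgeR adjusted p = 2.1e-05). With the trends removed, the count for H89 in WT cells was 12 higher and 1 lower, with a median of 1.38. The lists were not tested as sets.

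Of 24 subunits of SAGA and ATAC, 9 rose and 4 fell with H89 in WT cells, with a median of 0.14 beside 0.20 for all genes, and the share that rose was near that of all genes. With the trends removed, 12 rose and 3 fell, with a median of 0.31 beside 0.19. TRRAP, the large scaffold shared with NuA4, was at 82.0 ± 4.39 CPM in WT with H89 and 17.7 ± 0.460 CPM in WT without H89 (log2 2.21, edgeR adjusted p = 3.96e-08), and YEATS2 of ATAC rose as well (log2 1.57, edgeR adjusted p = 1.56e-07). TADA3, an adaptor that holds GCN5, fell (log2 -1.03, edgeR adjusted p = 1.01e-07). Between genotypes without H89, 8 were higher in S434A cells and 8 lower, and ENY2, of the deubiquitinating module, was at 36.7 ± 9.75 CPM in S434A cells and 141 ± 4.30 CPM in WT cells (log2 -1.94, edgeR adjusted p = 2.77e-06). The 17 subunits of NuA4 leaned the other way, with 6 higher and 9 lower for H89 in WT cells (median -0.45) and 3 higher and 9 lower in S434A cells without H89 (median -0.63). TRRAP and the ATPase EP400 were among the NuA4 subunits higher in S434A cells without H89, EP400 at 51.3 ± 11.7 CPM against 14.3 ± 0.393 CPM in WT cells (log2 1.84, edgeR adjusted p = 2.45e-06). MRGBP was lower in that comparison (log2 -0.77, edgeR adjusted p = 1.54e-06), and VPS72, the H2A.Z chaperone subunit, fell with H89 in WT cells (log2 -1.27, edgeR adjusted p = 6.93e-08). The median of NuA4 stayed below that of all genes with the trends removed, at -0.28 and -0.45 for the same comparisons. Trend-corrected log2 values for H89 in WT cells were 1.34 for TRRAP, 1.07 for YEATS2, -0.96 for TADA3 and -0.45 for VPS72. Between genotypes without H89 they were -1.25 for ENY2, 0.87 for EP400 and -0.75 for MRGBP.

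Of 9 scaffold genes of the MOZ, MORF and HBO1 complexes, 5 rose and 4 fell with H89 in WT cells. BRPF3 rose (log2 1.32, edgeR adjusted p = 9.77e-07), and ING5 (log2 -0.99, edgeR adjusted p = 2.15e-07) and MEAF6 (log2 -0.96, edgeR adjusted p = 1.53e-05) fell. The median of that list was 0.43 and turned to -0.05 with the trends removed. Of 12 subunits of MSL and NSL, 7 rose and 2 fell, and with the trends removed 6 rose and 4 fell, with a median of 0.21 beside 0.19 for all genes. Those that rose in the counts as deposited included the scaffolds KANSL1 (log2 1.57, edgeR adjusted p = 1.21e-07) and MSL1 (log2 0.83, edgeR adjusted p = 4.12e-07) and the transcription cofactor HCFC1 (log2 1.99, edgeR adjusted p = 4.17e-06), in contrast to KAT8 itself. With the trends removed, KANSL1, MSL1 and HCFC1 were at log2 values of 0.56, 0.57 and 1.30. Of the 8 genes of HAT1 and its histone chaperones, 1 rose and 2 fell with H89 in WT cells. These counts depended on the scaling, with 0 higher and 5 lower under RLE factors, 0 and 4 under upper-quartile factors, and 3 and 4 with the trends removed. Of the same 8 genes, 2 were higher and 4 lower in S434A than in WT cells without H89. RBBP7, the partner of HAT1, was at 113 ± 3.97 CPM in WT with H89 against 175 ± 1.29 CPM in WT without H89 (log2 -0.64, edgeR adjusted p = 7.57e-05), and at 107 ± 15.7 CPM in S434A without H89 (log2 -0.71 against WT, edgeR adjusted p = 4.97e-05).

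The acetyl-lysine readers, bromodomain and YEATS proteins that bind the mark, had 11 of 14 members higher and 1 lower with H89 in WT cells (median 1.29, and 0.76 with the trends removed). MLLT1, a YEATS reader of the elongation machinery, was among those that rose (log2 1.58, edgeR adjusted p = 3.54e-06). Of 12 other proteins reported to acetylate histones or other targets, 8 rose and 0 fell in the counts as deposited, and 9 rose and 3 fell with the trends removed. Those that rose as deposited included MCM3AP (log2 1.09, edgeR adjusted p = 2.01e-05; trend-corrected log2 0.62) and NAA60 (log2 1.05, edgeR adjusted p = 0.000134; trend-corrected log2 0.66). The supply of acetyl-CoA was mixed, with 6 of 12 genes higher and 4 lower. PDHB, of the pyruvate dehydrogenase complex, was at 77.0 ± 4.02 CPM in WT with H89 and 279 ± 0.619 CPM in WT without H89 (log2 -1.86, edgeR adjusted p = 1.38e-08), while ACSS2, which makes acetyl-CoA from acetate, was at 153 ± 16.4 CPM and 67.2 ± 0.504 CPM (log2 1.19, edgeR adjusted p = 2.17e-06). NCOA1 and YEATS2 each stand in 2 of these lists, as do TRRAP and MEAF6, so the counts overlap.

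Genes whose log2 level ran closest to an acetyltransferase across the 12 libraries were found by Pearson's correlation, given as a description, since the libraries share their groups and their trends on GC content and length. EP300 was closest to GPATCH8 (r = 0.998), NCOA6 (r = 0.998) and SPRED2 (r = 0.997), and 661 genes had an r over 0.95. CREBBP was closest to SIK2 (r = 0.997), DLG5 (r = 0.997) and NCOA6 (r = 0.996), with 794 genes over 0.95. EP300 and CREBBP had an r of 0.993 with each other. KAT2A was closest to LRRC14 (r = 0.991), EDC4 (r = 0.986) and TUBGCP6 (r = 0.985), and HAT1 to UGP2 (r = 0.996), TAF9 (r = 0.996) and NDUFA5 (r = 0.995). The neighbours were near their partner in GC content, with 48.5% to 56.6% for those of EP300 and CREBBP, 59.4% to 63.5% for those of KAT2A and 36.0% to 46.3% for those of HAT1. Apart from SPRED2 at 5505 bases, the neighbours of EP300 and CREBBP (11692 and 15479) had exon lengths of 9737 to 11133 bases. Exon lengths ran from 6130 to 7720 beside KAT2A (3775) and from 2455 to 9500 beside HAT1 (6793).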

How the data were processed

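The submitters deposited whole counts per gene for 12 HepG2 libraries, which featureCounts 2.0.1 summed over the exons of an hg19 annotation for paired reads, per the file headers, which set no option for strand, multimapping or overlap. The same deposited table gives the exon length of each gene in bases. Bowtie 0.12.2 and hg19 are named per the submitters' processing notes. Trimming, library kit and strandedness are not stated in the sources used here. For RNA isolation the labels name both an RNeasy kit and phenol-chloroform, and which was used for these libraries is not clear. The deposited counts were used as they stand, and 0 columns of samples were left unused. Identifiers without their version were matched to symbols for 40639 of 62475 genes. Total counts per library, 17562754 to 37187794, set the precision, which is given as the spread between replicates.

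The main test was edgeR's (version 4.0.16, R 4.3.3) robust quasi-likelihood test, fitted once to the 12 libraries after filterByExpr (by group, at a minimum count of 10) and TMM scaling, and adjusted by Benjamini-Hochberg over 14435 genes. A call is an adjusted p under 0.05, and the 2-fold limit of the series design is given beside it. Dividing a log2 fold change by the square root of F gave its SE. In the trend-corrected fit, offsets removed each library's spline trend (5 degrees of freedom) on GC content and exon length. GC content, from a GENCODE annotation of another build, was found for 14279 of the genes tested. Paralog ratios used an exact two-sided permutation test (scipy 1.17.1). Other settings were DESeq2 1.42.0, limma-voom (limma 3.58.1), RLE or upper-quartile scaling, other filters on low counts, only the groups compared, a replicate block, the trend correction, and leaving out each library in turn. A further 2 were added after seeing the data, limma-voom weighted by group quality, and the trend correction without replicate 1 of S434A without H89. The fit was tested on simulated data, with 50 genes changed at each fold. At 3-fold it called 94% for H89 in WT cells (14224 genes) and 100% for H89 in S434A cells (14257 genes). Between genotypes without and with H89 it called 94% and 90% (14239 and 14263 genes). For the difference between the H89 effects it called 72% (14236 genes). In the same order, it called 72%, 64%, 68%, 72% and 40% at 2-fold. At 1.5-fold it called 28%, 38%, 36%, 32% and 10%. The share of unchanged genes that it called is not given.

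The members and the gene lists were chosen with earlier results of these data known. All 10 acetyltransferases are named. Of each list of partners, up to 3 genes with the smallest p were eligible to be named in the H89 comparison of WT cells and in that of genotypes without H89. A result that this rule would name among the readers is not reported here. For EP300, CREBBP, KAT2A and HAT1, the 3 genes with the highest correlation were named among those with at least 2 CPM on average.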

Additional observations from a re-analysis of the deposited data

Results flagged for a closer look

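The effect of H89 differed between genotypes for 6 of the 10 acetyltransferase genes, by edgeR's quasi-likelihood test of the difference itself (S434A minus WT, log2 scale). EP300 had a difference of -1.84, with an H89 effect of 0.59 in S434A cells and 2.43 in WT cells. CREBBP had a difference of -1.71, with 0.56 in S434A cells and 2.28 in WT cells. KAT7 had a difference of -1.11, with -0.13 in S434A cells and 0.98 in WT cells. KAT2A had a difference of -0.68, with -0.13 in S434A cells and 0.55 in WT cells. KAT5 had a difference of 0.49, with -0.36 in S434A cells and -0.86 in WT cells. HAT1 had a difference of 1.71, with 0.81 in S434A cells and -0.90 in WT cells, neither of which passed its own test. Of all genes tested, 24% differed in each direction. Each value is also the genotype difference with H89 minus that without H89. It is thus no separate observation from the untreated genotype difference, such as 1.68 for EP300 and -1.66 for HAT1.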

How the results depend on the processing

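The counts of acetyltransferase genes past the threshold stayed within 1.5 times under all settings but 1. H89 in S434A cells gave 3 of 10, against 7, when only the groups compared entered the fit, where 2743 genes in all passed against 7504. With 1 library left out at a time, the counts ran from 9 to 10 for H89 in WT cells, from 6 to 10 for H89 in S434A cells, from 6 to 9 between genotypes without H89, from 5 to 8 for the difference of H89 effects and stayed at 0 between genotypes with H89. Over single genes, 508 of 570 results under other settings kept their direction and side of the threshold, 18 lost a call, 28 gained one and 16 changed sign. Leaving out a library did so for 326, 9, 9 and 16 of 360.

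Apart from KAT5 with H89 in S434A cells, which passed at -0.36 as deposited, the values whose sign changed had not passed the test. For H89 in S434A cells, the trend correction, the same with a replicate block, and that correction with replicate 1 of untreated S434A cells left out gave 0.43, 0.43 and 0.29 for KAT2A, 0.19, 0.19 and 0.055 for KAT5, and -0.094, -0.076 and -0.25 for HAT1. For the KAT8 difference of H89 effects (-0.01), these gave 0.61, 0.62 and 0.52, and RLE factors, DESeq2 and no filter gave 0.049, 0.038 and 0.047. KAT8 between genotypes without H89 was 0.11 with only the groups compared. With 1 library left out at a time, KAT2B ran from -0.54 to 0.59 between genotypes without H89, from -0.12 to 0.013 with H89 and from -0.65 to 0.47 for the difference of effects. KAT7 ran from -0.10 to 2.24e-05 and HAT1 from -0.044 to 0.22 between genotypes with H89, and the KAT8 difference of effects from -0.10 to 0.11.

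Deviations of same-numbered libraries from their group means correlated between -0.153 and 0.471. Libraries of different numbers were not set beside them, so whether the replicate numbers pair the libraries is not settled. A replicate block gave 10 acetyltransferase genes for H89 in WT cells, 7 for H89 in S434A cells, 7 between genotypes without H89, 0 with H89 and 6 for the difference of effects. Of 40 shares of the summed level, 34 moved by over 1 SD without division by exon length, and 2 of 96 paralog ratio results moved. The precision of KAT2B is limited by its 7 to 61 counts per library. The causes of these changes were not tested.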

Other observations

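Relations between the log2 levels of the acetyltransferase genes across the 12 libraries are given as Pearson correlations that carry the groups and library trends with them. EP300, CREBBP, KAT2A and KAT7 ran together, with r between 0.844 and 0.993, and so did KAT2B, KAT6A and KAT6B, with r between 0.935 and 0.983. The sets were not separate, since KAT6A had an r of 0.882 with EP300 and 0.849 with CREBBP. KAT8 ran against KAT6B (r = -0.977) and KAT6A (r = -0.961), and KAT5 against EP300 (r = -0.960). HAT1 ran against KAT2A (r = -0.793).

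Between genotypes without H89, a complex member named above for H89 also differed. HCFC1 averaged 107 ± 33.8 CPM in S434A cells and 28.3 ± 1.03 CPM in WT cells (log2 1.91, edgeR adjusted p = 1.07e-05), and 0.80 on the log2 scale with GC and length trends removed (edgeR adjusted p = 2.19e-06). Of 12 genes of acetyl-CoA supply, 4 were higher and 4 lower in S434A cells, near the shares of all genes, 29% and 29.3%. Among the lower ones, PDHB was at 106.5 ± 13.7 CPM against 279 ± 0.619 CPM in WT cells (log2 -1.39, edgeR adjusted p = 5.23e-07) and ACAT2, the cytosolic thiolase, at 147 ± 10.4 CPM against 357 ± 3.52 CPM (log2 -1.28, edgeR adjusted p = 4.35e-07). ACAT1, the mitochondrial thiolase, was lower as well (log2 -1.26, edgeR adjusted p = 2.96e-05).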
